A study of Mus musculus with 2 samples.

Results

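The genes described here code for the receptors of insulin and of the insulin-like growth factors (IGFs), for both IGF ligands, for the adaptors that carry the receptors' signal into the cell and for IGF-binding proteins that cells secrete. They are Igf1, Igf2, Insr, Igf1r, Igf2r, Irs1, Irs2, Igfbp5 and Igfbp7. The 9 genes were taken by symbol from the 22383 features of single-cell RNA-sequencing matrices of mouse pancreatic islets, and all 9 were found. Islets came from mice aged 5 weeks, on a C57BL/6N background, and were cultured overnight with 10% serum before cells were separated. One group, TBL/RBKO (TBL/RβKO), carried Cre recombinase at the Ins1 locus together with loxP-flanked Tbl1x and Tbl1xr1, the genes of a pair of transcription co-factors, so that deletion depended on Ins1-driven Cre in β-cells. The other group, labelled wildtype and called control here, was made of Cre-negative littermates, so that a Cre insertion at Ins1 and the deletion came together in 1 group. Each group gave 1 library of 150 islets pooled from 4 mice. No spread between replicates could be had, no difference was tested, and every value below describes these libraries.

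Insulin and the IGFs bind receptor tyrosine kinases, the insulin receptor (Insr) and the IGF1 receptor (Igf1r), which can also pair into hybrid receptors. Bound receptors phosphorylate the docking proteins Irs1 and Irs2, which recruit phosphoinositide 3-kinase, and the lipid it makes activates the kinase Akt, which keeps Foxo transcription factors out of the nucleus. Igf2r has no such kinase and takes IGF2 up for degradation, and IGF-binding proteins hold IGFs outside the cell. In β-cells this pathway is known for its part in cell mass and survival, with Irs2 as the adaptor whose loss in mice leads to diabetes.

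The positions of the genes on GRCm39 (GENCODE M39) were as follows. Igf1 lay at chr10:87693642-87772904 on the plus strand and Igf2 at chr7:142204503-142220694 on the minus strand, where the feature Gm49394 overlaps it on the same strand. Insr lay at chr8:3172061-3329647 (minus), Igf1r at chr7:67601518-67883416 (plus) and Igf2r at chr17:12901293-12988614 (minus). Irs1 lay at chr1:82210822-82269338 (minus) and Irs2 at chr8:11034681-11059499 (minus). Igfbp5 lay at chr1:72897091-72914043 (minus) and Igfbp7 at chr5:77493130-77555931 (minus), opposite Polr2b.

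The upstream sequences of 3 genes are shown because 2 of them, Irs2 and Igfbp5, were past 2-fold in insulin-producing cells, while Irs1, the sister adaptor of Irs2, was not. Each is the 250 bases before the annotated start in RefSeq (GRCm38.p6), 5′ to 3′ on the strand of the gene. These windows are chr8:11008930-11009179 for Irs2, chr1:82291440-82291689 for Irs1 and chr1:72874866-72875115 for Igfbp5, all on the minus strand. Capitals mark the E-box letters CACGTG and the run TTGTTT, which is part of many forkhead-factor sites.
Irs2: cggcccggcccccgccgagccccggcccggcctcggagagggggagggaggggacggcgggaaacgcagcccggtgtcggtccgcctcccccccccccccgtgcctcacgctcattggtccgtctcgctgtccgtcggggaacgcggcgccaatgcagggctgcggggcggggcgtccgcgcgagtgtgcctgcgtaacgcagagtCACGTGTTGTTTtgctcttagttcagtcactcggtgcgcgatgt
Irs1: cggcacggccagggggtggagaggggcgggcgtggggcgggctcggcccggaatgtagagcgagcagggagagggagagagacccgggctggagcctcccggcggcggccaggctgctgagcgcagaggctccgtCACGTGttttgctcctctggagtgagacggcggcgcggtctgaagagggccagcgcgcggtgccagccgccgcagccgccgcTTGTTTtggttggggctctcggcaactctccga
Igfbp5: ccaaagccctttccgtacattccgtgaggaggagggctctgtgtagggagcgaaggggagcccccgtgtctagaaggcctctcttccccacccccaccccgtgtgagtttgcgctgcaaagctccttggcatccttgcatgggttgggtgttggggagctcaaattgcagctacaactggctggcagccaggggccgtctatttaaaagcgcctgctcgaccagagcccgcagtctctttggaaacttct
In Irs2 the E-box began 44 bases before the start and the TTGTTT run followed it directly, 38 bases before the start. Irs1 held the same pair of matches, 115 and 33 bases before its start. Igfbp5 held neither. Matches were searched on both strands, and 6.02% of all 32851 promoters in the table held CACGTG and 18.3% held TTGTTT in the same window. Of the other genes with a promoter in the table, which were 8 of the 9, only Igf2r held CACGTG (2 matches), and 1 of 4 Igf2 promoters held TTGTTT. Further motifs searched were GGGCGG (32.7% of promoters), CCAAT (33.8%), TGACG (17.8%) and TGTTTAC (3.17%), which shares TGTTT with the marked run. The Irs2 window held 2 matches to CCAAT and 1 to GGGCGG, the Irs1 window 2 to GGGCGG and 1 to TGACG, and the Igfbp5 window none of the 4. These are matches of letters and do not show binding.

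The control library held 7067 barcodes and 241434108 unique molecular identifiers (UMIs, each marking 1 captured transcript), and the TBL/RBKO library 5833 barcodes and 185062206 UMIs. Of these, 4747 and 4179 barcodes had more than 2500 detected genes and under 10% mitochondrial UMIs, and 14 barcode sequences occurred in both. Cells were placed in a class by their largest hormone, at 100 UMIs per 10000 or more. The insulin class (Ins1 plus Ins2) held 2877 control and 1338 TBL/RBKO cells, the Gcg class 1284 and 1546, the Sst class 223 and 374 and the Ppy class 259 and 495. These classes correspond to β-, α-, δ- and PP-cells by their hormone alone. All 9 β-cell markers were at 10 CPM (UMIs of a gene per 1000000 UMIs) or more in the insulin class of both libraries, but Mafa, a β-cell transcription factor, was at 463 CPM in the control and 85.5 CPM in TBL/RBKO. The 9 include Ins1 and Ins2, which define the class. In each of the control Gcg, Sst and Ppy classes 8 of the 9 also reached 10 CPM, so this bar does not set the insulin class apart. Insulin took 49.6% of the UMIs of the control insulin class and 27.9% of those of TBL/RBKO. Cre had 0 UMIs in the control library and 3247 in the other, as the labels have it, whereas Tbl1x (96.9 and 351 CPM) and Tbl1xr1 (20.0 and 129 CPM) were higher in the TBL/RBKO insulin class. The counts do not tell where on a gene a UMI lay, so UMIs outside the deleted exons check nothing.

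Genes were compared between the libraries as log2 ratios of CPM, TBL/RBKO over control, less the median ratio of all genes with 100 or more UMIs in both libraries together. That median was 0.30 in the insulin class, 0.10 in the Gcg class, 0.02 in the Sst class and 0.25 in the Ppy class. A gene is called past 2-fold at a centred ratio of 1 or more, or of -1 or less. Intervals are exact 95% intervals and cover counting error only, not differences between animals or preparations. In the insulin class 10.4% of 13121 genes were past 2-fold (6.68% higher and 3.71% lower), as were 3 of the 8 members with enough UMIs, with Irs2 and Igfbp5 higher and Igf1 lower. The share was 1.82% of 11778 genes in the Gcg class (1.33% higher and 0.484% lower), where 1 of 7 members (Igfbp5, lower) was past 2-fold. It was 1.32% of 10048 genes in the Sst class (0.945% higher and 0.378% lower), with 0 of 7 members, and 6.28% of 10853 genes in the Ppy class (4.82% higher and 1.47% lower), with 1 of 7 (Igfbp5, higher). The median centred ratio of the members with enough UMIs was 0.01, -0.02, 0.15 and 0.37 in the insulin, Gcg, Sst and Ppy classes, where the median of all genes is 0 by construction. Igf1 passed the minimum in the insulin class alone and Igf2 in no class. Counts this small do not set the members apart from the background.

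**Figure D1:**
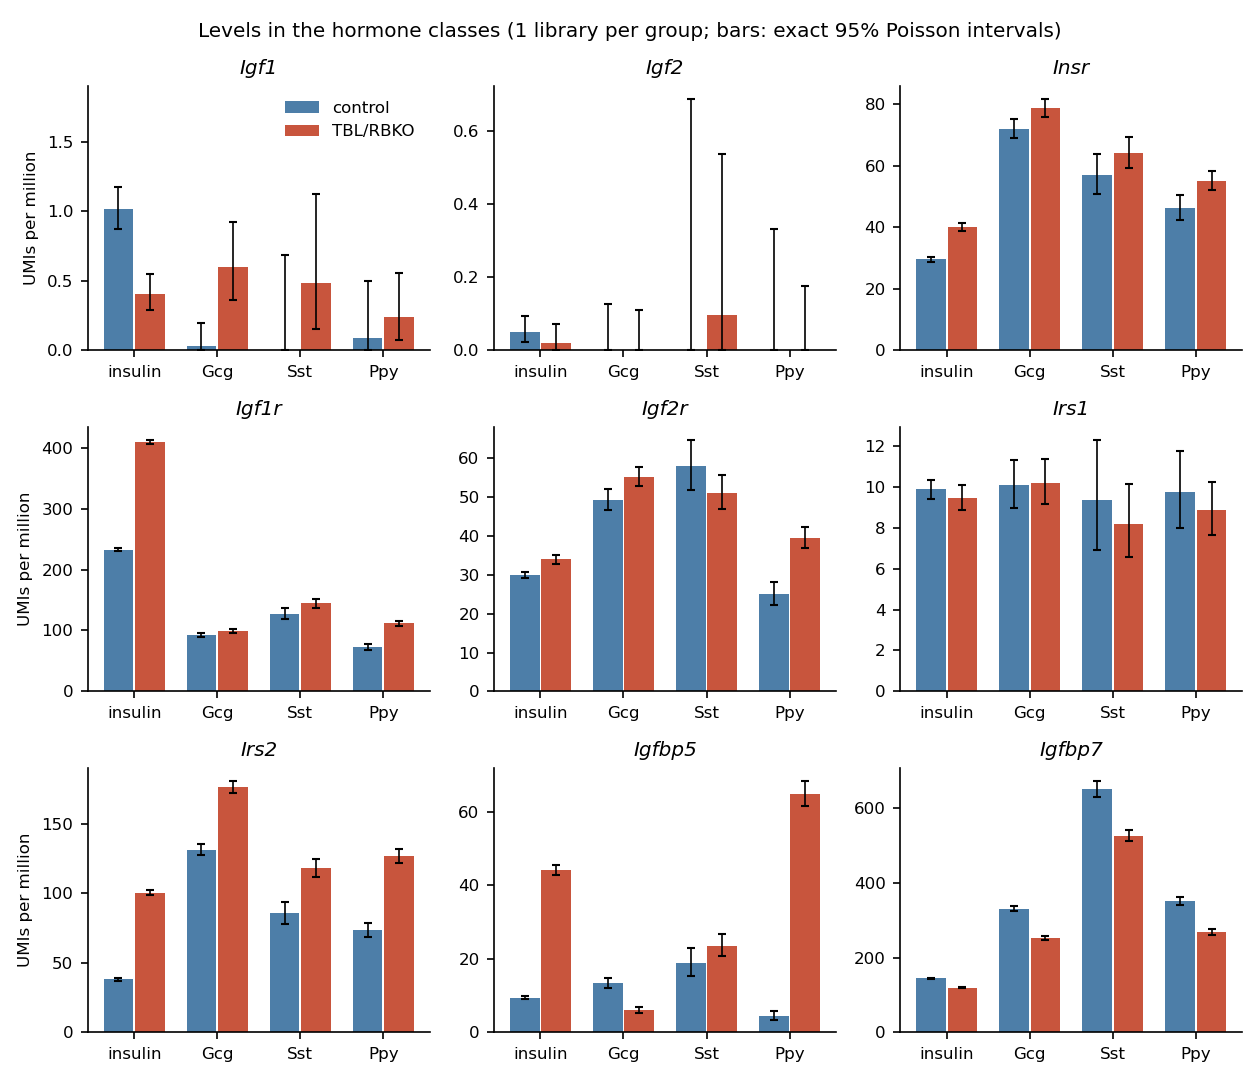
Levels of the 9 genes (vertical axes, CPM, each panel on its own scale) in the 4 hormone classes of the control (blue) and TBL/RBKO (red) libraries, with exact 95% Poisson intervals. Igf1r in the insulin class was at 233 and 409, Irs2 at 38.0 and 100.5, and Igfbp5 at 9.44 and 44.1, while Igf1 and Igf2 stayed near 0.

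**Figure D2:**
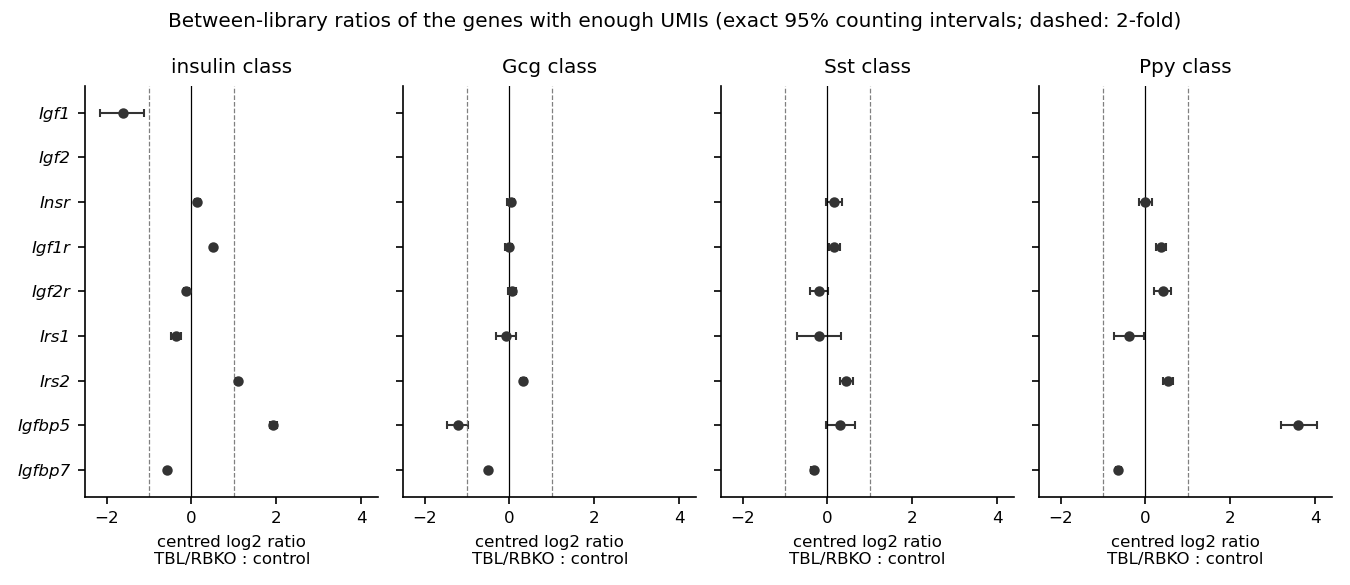
Centred log2 ratios of TBL/RBKO over control (horizontal axes) for the members with 100 or more UMIs, with exact 95% counting intervals and dashed lines at 2-fold. Irs2 (1.10), Igfbp5 (1.92) and Igf1 (-1.62) lay outside the lines in the insulin class and Igfbp5 alone in the Gcg (-1.22) and Ppy (3.60) classes.

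The IGF ligands were almost absent from hormone-producing cells. Igf1, the secreted growth factor made largely by liver and by macrophages and stromal cells in tissues, had 185 UMIs in the control insulin class (1.02 CPM) and 41 in that of TBL/RBKO (0.406 CPM), a centred log2 ratio of -1.62 (interval -2.15 to -1.13). These UMIs sat in 27 of 2877 control cells and 10 of 1338 TBL/RBKO cells. Of the 185 control UMIs, 179 (96.8%) fell in the 47 barcodes that carried 3 or more of 8 macrophage markers (C1qa, C1qb, C1qc, Lyz2, Cd68, Csf1r, Adgre1 and Tyrobp), as did 29 of 41 (70.7%) in 11 barcodes of TBL/RBKO. The 8 markers summed to 82.5 CPM in the control insulin class and 26.9 CPM in that of TBL/RBKO, and none was at 0. Without the barcodes that carried 3 or more markers of macrophages, endothelial, stromal, B or T cells (82 and 45 barcodes), 6 control and 5 TBL/RBKO UMIs of Igf1 were left. The lower Igf1 of the TBL/RBKO insulin class thus lay in barcodes with macrophage markers.

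Igf1 was highest in the macrophage-like barcodes that had little hormone. They were at 182 CPM (154 to 213) in 36 control barcodes and 214 CPM (187 to 245) in 52 of TBL/RBKO, whose intervals overlap. Stromal-like barcodes followed with 66.5 CPM (18 barcodes) and 52.4 CPM (93 barcodes), again with overlapping intervals. Igf1 was at 13.3 CPM in 42 endothelial-like control barcodes and at 0 UMIs in 40 of TBL/RBKO, where the 95% upper bound was 5.51 CPM. The control UMIs lay in only 2 of the 42 barcodes. As shares of barcodes with a UMI (0.58% to 16.2% and up to 8.81%) the intervals overlapped. In 27 ductal-like barcodes of TBL/RBKO Igf1 was at 33.8 CPM. The Gcg class held 1 and 20 UMIs, the Sst class 0 and 5 and the Ppy class 1 and 5, too few for a ratio. Igf2, the IGF best known from fetal growth, had 14 UMIs in all kept barcodes of both libraries, 9 and 2 of them in the insulin class, and its level was not detectable at this depth beyond single UMIs.

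**Figure D3:**
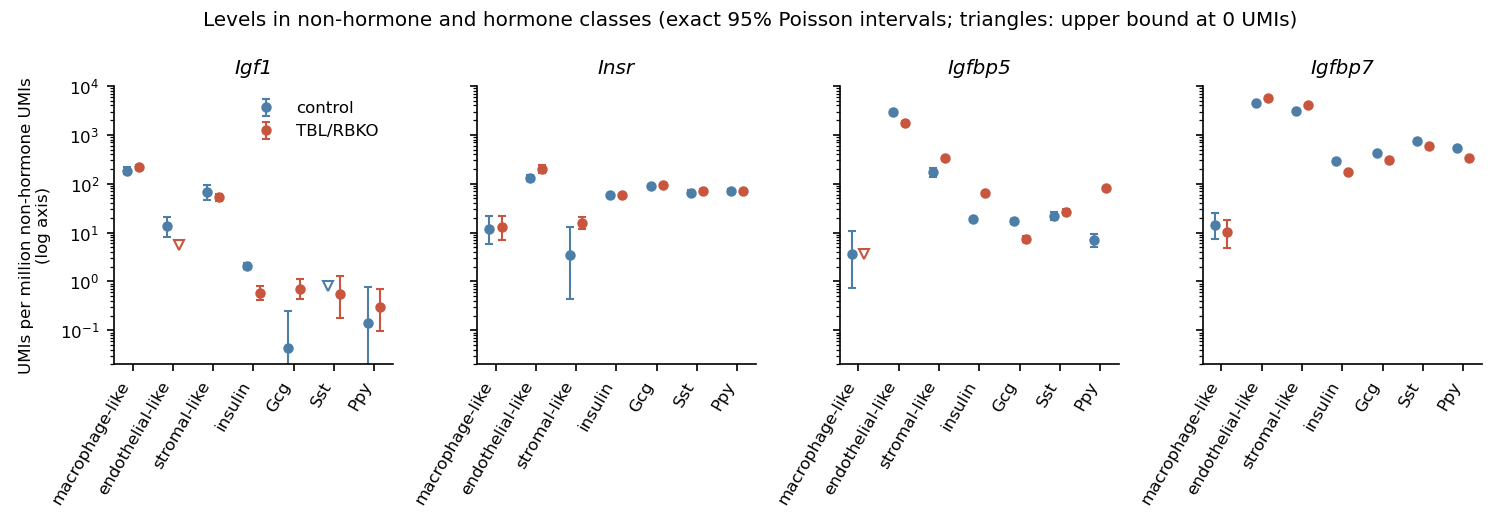
Levels of Igf1, Insr, Igfbp5 and Igfbp7 (hormone-free CPM, which leaves out Ins1, Ins2, Gcg, Sst and Ppy, log axis) in 3 non-hormone and the 4 hormone classes, with exact 95% Poisson intervals and open triangles for upper bounds where no UMI was found. Igf1 peaked in macrophage-like barcodes (183 control, 215 TBL/RBKO), Insr, Igfbp5 and Igfbp7 in endothelial-like ones.

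Among the receptors, Igf1r stood out by its level in insulin-producing cells. It was at 233 CPM in the control insulin class (42407 UMIs) and 409 CPM in that of TBL/RBKO (41340 UMIs), a centred log2 ratio of 0.51 (0.50 to 0.53), short of 2-fold and at the 85.1st percentile of all genes tested. Among cells whose insulin was at least 10 times the next hormone the ratio was 1.04, past 2-fold. The other hormone classes had 93.1 and 98.5 CPM (Gcg), 128 and 144 CPM (Sst) and 72.6 and 112 CPM (Ppy), with centred ratios of -0.02, 0.16 and 0.37. With the same 10-fold rule the Sst class was at 0.83, from only 38 control and 113 TBL/RBKO cells. The Ppy class turned to -0.22 with that rule, and among barcodes under 6000 genes it was at -0.31. Because hormone transcripts take up different shares of each class, the order of classes was read in hormone-free CPM, whose total leaves out Ins1, Ins2, Gcg, Sst and Ppy. On that scale Igf1r was highest in the insulin class of both libraries, at 473 in the control and 594 in TBL/RBKO, and the Sst class followed among hormone classes with 148 and 163. The control Gcg and Ppy classes (118 and 112) did not differ beyond their intervals, nor did the TBL/RBKO Gcg class (118) and endothelial-like barcodes (106).

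The higher summed level of Igf1r in the TBL/RBKO insulin class was not a shift of every cell. In insulin-free CPM, whose total leaves out Ins1 and Ins2, the median cell was at 396 in the control and 249 in TBL/RBKO, and the 90th percentile at 874 and 1453. Thus the middle of the class was lower and its upper end higher in the TBL/RBKO library. Cells with 3000 or more insulin UMIs per 10000 were at 486 (2562 control cells) and 881 (521 TBL/RBKO cells), and cells below that at 271 (315 cells) and 414 (817 cells). In TBL/RBKO the 274 insulin-class cells with a Cre UMI were at 771 and the 1064 without one at 508, where the cells with Cre were also deeper (medians of 81403 and 64693 UMIs). Thinned to 3000 UMIs per cell with insulin taken out, 67.7% of control and 55.1% of TBL/RBKO cells had an Igf1r UMI, against 8.33% and 3.85% of macrophage-like barcodes. The lower share was not seen when insulin was left in, at 61.1% and 62.0% of cells thinned to 5000 UMIs (5.56% and 9.62% of macrophage-like barcodes), and 96.9% and 95.5% had a UMI at full depth.

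Insr, the receptor of insulin itself, differed little between the libraries. It was at 29.5 and 40.0 CPM in the insulin class, with a centred log2 ratio of 0.14 (0.08 to 0.20) that ranged from -0.05 to 0.44 over 8 other settings. Its centred ratios in the Gcg, Sst and Ppy classes were 0.03, 0.15 and 0.00. In hormone-free CPM it was at 59.9 and 58.0 in the insulin class and at 91.5 and 93.9 in the Gcg class, the highest hormone class in both libraries. The insulin class was the lowest hormone class in TBL/RBKO, whereas in the control its interval overlapped that of the Sst class (65.7). Endothelial-like barcodes were above all hormone classes, at 132 in the control and 199 in TBL/RBKO. Stromal-like and macrophage-like barcodes held the least (3.52 and 12.1 in the control, 15.9 and 13.1 in TBL/RBKO) and did not differ beyond their intervals. Igf2r, the scavenger of IGF2, was at 30.0 and 34.0 CPM in the insulin class, 49.4 and 55.3 in the Gcg class, 58.0 and 51.2 in the Sst class and 25.1 and 39.6 in the Ppy class. Its centred ratios were -0.12, 0.06, -0.20 and 0.41, and the intervals of the Gcg and Sst classes included 0. The Sst, Gcg and insulin classes of the control (67.0, 62.8 and 61.0 hormone-free CPM) did not differ beyond the intervals of neighbours.

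Irs2, the adaptor best known in β-cells, was past 2-fold in the insulin class. There it was at 38.0 CPM in the control (6928 UMIs) and 100.5 CPM in TBL/RBKO (10148 UMIs), a centred log2 ratio of 1.10 (1.06 to 1.15), or 2.15-fold. It was also higher in the other hormone classes, at 131 and 176 CPM in the Gcg class (0.32, interval 0.27 to 0.38), 85.8 and 118 CPM in the Sst class (0.44, 0.29 to 0.60) and 73.5 and 127 CPM in the Ppy class (0.54, 0.43 to 0.65). None of these 3 was past 2-fold, and the difference between classes was not tested. In hormone-free CPM, Irs2 was lowest in the insulin class of the control among hormone classes (77.2, with Sst at 99.1, Ppy at 114 and Gcg at 167). In TBL/RBKO the insulin class (146) stood above the Sst class (133) and below the Ppy (161) and Gcg (211) classes.

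The difference in Irs2 was spread over the insulin class. The median cell was at 55.5 insulin-free CPM in the control and 92.8 in TBL/RBKO, and the 90th percentile at 181 and 315. With 3000 or more insulin UMIs per 10000 the levels were 72.7 and 121, and below that 96.8 and 148. Cells below 3000 made up a larger share of the TBL/RBKO class than of the control class. The part of this make-up in the Irs2 ratio of the whole class was not tested. TBL/RBKO cells with and without a Cre UMI were close, at 144 and 138. Thinned to 5000 UMIs per cell, 17.2% of control cells (15.9 to 18.7) and 34.8% of TBL/RBKO cells (32.2 to 37.4) had an Irs2 UMI, against 5.56% and 13.5% of macrophage-like barcodes. The shares were 19.0% and 30.9% thinned to 3000 UMIs with insulin taken out, and 74.5% and 88.5% at full depth. Macrophage-like, stromal-like and endothelial-like barcodes held little Irs2 (25.1, 26.3 and 8.0 CPM in the control and 25.0, 46.4 and 14.9 CPM in TBL/RBKO).

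Irs1, the sister adaptor, did not follow Irs2. It was at 9.87 and 9.47 CPM in the insulin class, with a centred log2 ratio of -0.36 (-0.47 to -0.25). In the Gcg, Sst and Ppy classes it lay between 8.19 and 10.2 CPM in both libraries, with centred ratios of -0.08, -0.21 and -0.38, and the intervals of the Gcg and Sst classes included 0. The Sst class held only 50 and 85 UMIs of Irs1. Its ratio ranged there from -0.33 to 3.10 over 8 other settings and kept its sign in 5 of them. In hormone-free CPM Irs1 was highest in the insulin class of the control (20.0). In TBL/RBKO the order was insulin (13.7), Gcg (12.2), Ppy (11.2) and Sst (9.26), and each overlapped its neighbour. The intervals of the insulin (12.9 to 14.6) and Sst (7.40 to 11.4) classes did not overlap. Macrophage-like barcodes held 0 Irs1 UMIs in both libraries.

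Igfbp5, a secreted protein that binds IGFs and matrix, had the largest ratios of the members in the insulin, Gcg and Ppy classes, though not in the Sst class. In the insulin class it was at 9.44 CPM in the control (1719 UMIs) and 44.1 CPM in TBL/RBKO (4452 UMIs), a centred log2 ratio of 1.92 (1.84 to 2.01), or 3.80-fold. Its UMIs were unevenly spread. The 28 control cells with the most (1% of the class) held 41.7% of them and the 13 of TBL/RBKO 32.5%, and the median cell of both libraries had none. Barcodes with 3 or more markers of macrophages, endothelial, stromal, B or T cells held 366 UMIs (21.3%) in the control and 665 (14.9%) in TBL/RBKO, and without them the ratio was 2.05. Of these UMIs, 254 lay in 8 control barcodes with stromal markers and 629 in 18 of TBL/RBKO. Another 138 and 416, some of them the same UMIs, lay in 28 and 20 barcodes with endothelial markers. Over the whole class the 8 stromal markers summed to 2.84 CPM in the control and 22.9 CPM in TBL/RBKO and the 8 endothelial markers to 26.3 and 19.4 CPM, with none at 0.

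Within the insulin class the difference in Igfbp5 was larger among cells of high insulin content, and the make-up of the class differed too, with 315 of 2877 control and 817 of 1338 TBL/RBKO cells under 3000 insulin UMIs per 10000. In insulin-free CPM, cells with 3000 or more insulin UMIs per 10000 were at 12.3 (11.5 to 13.1) in the control and 53.0 (50.2 to 56.0) in TBL/RBKO. Cells below that were at 69.4 (64.4 to 74.6) and 65.1 (62.8 to 67.4), with overlapping intervals. Without the barcodes that carried markers of other cell types they were at 40.8 (36.7 to 45.1) and 54.2 (52.1 to 56.4), and the intervals no longer overlapped. TBL/RBKO cells with a Cre UMI were at 51.6 and those without at 63.9. Averaged as CPM per cell, which gives shallow cells the weight of deep ones, the ratio was 0.64 and no longer past 2-fold. Thinned to 5000 UMIs, 3.02% of control cells and 11.0% of TBL/RBKO cells had an Igfbp5 UMI, against 2 of 36 control macrophage-like barcodes (5.56%) and 0 of 52 of TBL/RBKO, which allows up to 5.77%. Thinned to 3000 UMIs with insulin taken out, the shares were 3.93% and 8.74%, against 1 of 36 (2.78%) and 0 of 52, and at full depth they were 24.2% and 40.3%. The few macrophage-like barcodes leave a wide interval (0.68% to 18.7% for 2 of 36), so the thinned control share could not be told from background.

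In the Ppy class Igfbp5 was at 4.50 CPM in the control (50 UMIs) and 64.9 CPM in TBL/RBKO (1361 UMIs), a centred log2 ratio of 3.60 (3.19 to 4.04). Of the 1361 UMIs, 1226 (90.1%) lay in 141 cells in which insulin was the second hormone and Ppy was less than 10 times as high, at 170 insulin-free CPM. One barcode held 702 UMIs. The control had 17 such cells with 3 UMIs. Where Ppy was at least 10 times the next hormone, Igfbp5 was at 2.22 in 155 control cells and 2.18 in 207 TBL/RBKO cells, and the ratio turned to -0.13. The 442 insulin-class cells of TBL/RBKO with Ppy as second hormone held 2037 UMIs, 45.8% of that class, at 75.3 insulin-free CPM. The control had 41 such cells, at 10.3. The 4 PP-cell markers summed to 7610 CPM in the control insulin class and 52867 CPM in that of TBL/RBKO, and their part in the Igfbp5 result was not tested beyond these values.

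In the Gcg class Igfbp5 was lower in TBL/RBKO, at 13.3 CPM in the control (383 UMIs) and 6.14 CPM (206 UMIs), a centred log2 ratio of -1.22 (-1.47 to -0.97). One control barcode held 235 of the 383 UMIs. Without the 12 control and 13 TBL/RBKO barcodes that carried markers of other cell types the ratio was 0.46, so the lower value rested on those barcodes. In the Sst class it was at 18.8 and 23.6 CPM (0.31, -0.03 to 0.66). Outside the hormone classes Igfbp5 was highest in endothelial-like barcodes, at 2923 CPM in the control and 1778 CPM in TBL/RBKO, followed by stromal-like ones at 170 and 330 CPM. The endothelial-like UMIs lay in 30 of 42 control barcodes but in only 7 of 40 of TBL/RBKO, so the latter level rested on few barcodes. The 133 TBL/RBKO barcodes with little hormone and no named class were at 183 CPM.

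**Figure D4:**
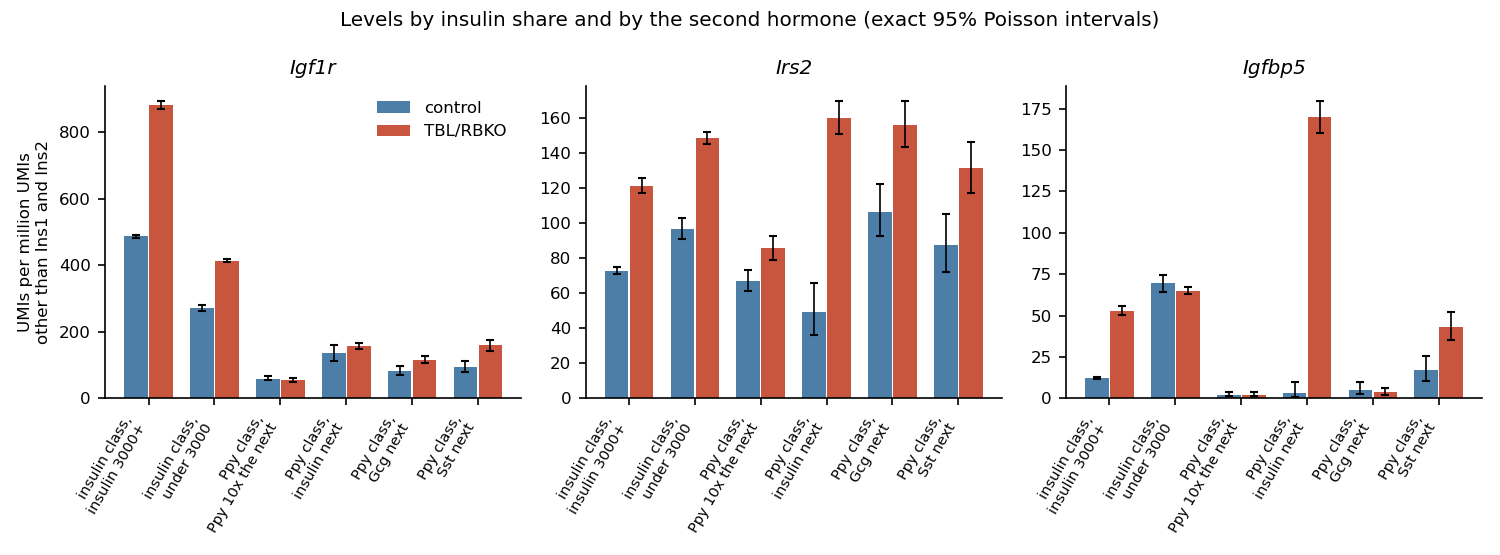
Levels of Igf1r, Irs2 and Igfbp5 (vertical axes, insulin-free CPM) in the insulin class split at 3000 insulin UMIs per 10000 and in the Ppy class split by the second hormone, with exact 95% Poisson intervals. Igfbp5 reached 170 in TBL/RBKO Ppy-class cells with insulin as second hormone and stayed at 2.22 and 2.18 where Ppy was 10 times the next hormone.

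Igfbp7, a secreted protein of blood vessels and stroma that binds IGFs weakly, was lower in TBL/RBKO in all 4 hormone classes, though nowhere past 2-fold. It was at 145 and 119.7 CPM in the insulin class (centred log2 ratio -0.57, interval -0.61 to -0.54), 331 and 252 CPM in the Gcg class (-0.50), 652 and 526 CPM in the Sst class (-0.33) and 352 and 268 CPM in the Ppy class (-0.64). In hormone-free CPM the order of the hormone classes was the same in both libraries, with Sst (752 and 595), Ppy (544 and 340), Gcg (421 and 300) and insulin (294 and 174), and no intervals of neighbours overlapped. The median insulin-class cell was at 212 in the control and 95.6 in TBL/RBKO in insulin-free CPM. With 3000 or more insulin UMIs per 10000 the levels were 258 and 129, and below that 519 and 184. Endothelial-like barcodes were highest (4467 and 5617 CPM), then stromal-like ones (3115 and 4032 CPM), both higher in TBL/RBKO, and macrophage-like ones held 14.3 and 10.0 CPM. Barcodes with markers of other cell types held 9.30% of the control and 18.8% of the TBL/RBKO insulin-class UMIs of Igfbp7, and without them the ratio was -0.72. Ductal markers were not among those, and 148 control and 344 TBL/RBKO insulin-class barcodes carried 3 or more of 6. The 6 summed to 129 CPM in the control and 517 CPM in TBL/RBKO with none at 0, and their part in the result was not tested. Ductal-like barcodes of TBL/RBKO held 1296 hormone-free CPM of Igfbp7. Where the largest hormone was at least 10 times the next, the ratio of Igfbp7 was -0.02 in both the Sst class (38 control and 113 TBL/RBKO cells) and the Ppy class.

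The wider pathway was read from a list of 65 further genes, from IGF-binding proteins and their proteases to Akt, Foxo, mTOR and Socs genes. In the insulin class 58 of them had enough UMIs, of which 5 were past 2-fold higher and 2 lower, while 51 lay between. The 7 were 12.1% of those tested, beside 10.4% of all genes, and the median of the list was 0.12. The list had 3 genes of 55 past 2-fold in the Gcg class, 2 of 50 in the Sst class and 2 of 51 in the Ppy class (5.45%, 4.00% and 3.92%, beside 1.82%, 1.32% and 6.28% of all genes). These genes, named after their values were seen, were Igfbp4 and Socs3 (higher) and Igfbp3 (lower) in the Gcg class, Socs3 (higher) and Insrr (lower) in the Sst class and Igfals (higher) and Pappa2 (lower) in the Ppy class. Igfbp3 was at 234 and 36 UMIs in the Gcg class, and at 5 and 4 without the barcodes that carried markers of other cell types.

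Of the 7 genes in the insulin class, Insrr had the most UMIs in the control. This orphan relative of the insulin receptor, which senses alkaline pH, was at 67.5 CPM in the control (12291 UMIs) and 17.7 CPM in TBL/RBKO (1789 UMIs), a centred log2 ratio of -2.23 (-2.30 to -2.16). It was lower both in cells with 3000 or more insulin UMIs per 10000 (144 and 50.2 insulin-free CPM) and in those below (57.1 and 12). Pappa2, a protease that cleaves Igfbp5 and Igfbp3, was at 24.1 CPM (4395 UMIs) and 100.1 CPM (10105 UMIs), a ratio of 1.75. Its relative Pappa, which cleaves Igfbp4, went from 58 to 341 UMIs (3.11), Irs3 from 23 to 136 (3.12) and Igfbp4 itself from 24 to 116 (2.82), at levels from 0.126 to 3.38 CPM. Igfbp4 fell short of 100 UMIs without the barcodes that carried markers of other cell types (12 and 69 UMIs). Inppl1, a lipid phosphatase that opposes the kinase, was at 11.7 and 30.7 CPM (1.09), and Socs1, a cytokine-induced inhibitor of insulin signalling, had 133 and 39 UMIs (-1.22).

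Other named genes of the pathway were not past 2-fold. Foxo1 and Foxo3, the transcription factors that Akt restrains, were at 61.7 and 120.0 CPM and at 24.4 and 54.2 CPM in the insulin class, with centred ratios of 0.66 and 0.85. Akt1 and Akt2 were at -0.27 and 0.25. The regulatory kinase subunit Pik3r1 was at -0.14 and the receptor-binding inhibitors Grb10 and Grb14 at -0.17 and 0.04. In the Gcg class these 7 genes lay between -0.02 and 0.43.

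**Figure D5:**
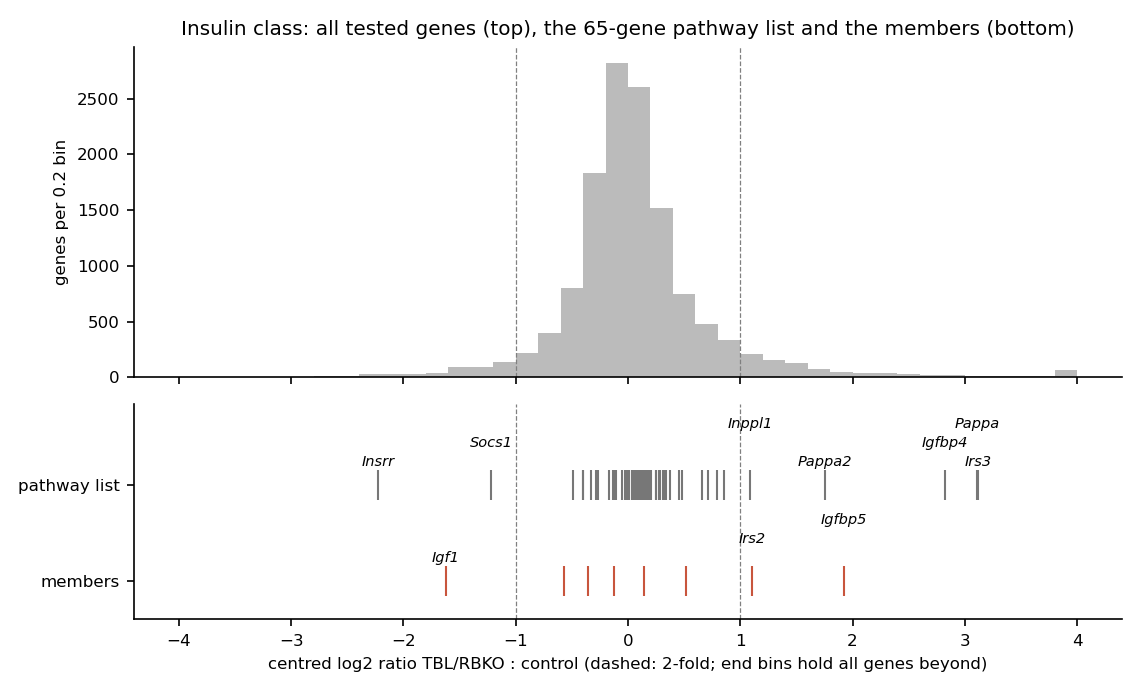
Distribution of centred log2 ratios of all 13121 genes tested in the insulin class (top, genes per bin) above those of the pathway list and of the members (bottom, 1 tick per gene, those past 2-fold named). Most of the list lay in the bulk of the distribution, with Insrr at -2.23 at one end and Pappa (3.11) and Irs3 (3.12) at the other.

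Likeness between genes was measured as Pearson's r of log2(CPM + 1) over 11 points, the 4 hormone classes of both libraries and 3 non-hormone classes of TBL/RBKO with 50 or more cells, among 11279 genes with 1000 or more UMIs. The 3 were B cell-like, macrophage-like and stromal-like barcodes. Endothelial-like barcodes (42 and 40) were too few to be a point. Likeness therefore leaves out the class in which Insr, Igfbp5 and Igfbp7 were highest. The points share libraries, and r is given as a description. Nearest to Insr were Ppp1r13b, Phip and Phf21a (r = 0.99 for each) and to Igf1r Atp2a2, Lrrc27 and Tmem65 (0.95 each). Nearest to Igf2r were Cdc42bpa (0.99), Kdm1a (0.98) and Slc30a4 (0.98), and to Irs1 Atp8b1, Ddr1 and Ndrg1 (0.99 each). Ppp1cb and Lpp were among the genes most like Irs2 (0.98 each). Igf1 was most like Tnfaip2, Dab2 (0.99 each) and Acvrl1 (0.98). Igfbp5 was most like Serf1, Slc29a1 (0.95 each) and Dnajc10 (0.94), and Igfbp7 like Gucy1b1, Rab34 and Ryk (0.98 each). With 14 UMIs in all, no likeness was read for Igf2.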

How the data were processed

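Single-cell RNA-sequencing of dissociated mouse islets was done with Chromium 3′ v3.1 chemistry, in 1 library per group. The deposited values were raw UMI counts for each gene and barcode, produced by the authors with the count command of Cell Ranger 7.1.0 at standard settings (10000 expected cells). The submitters' processing notes name GRCm39. The study's methods describe removal of free RNA and doublets as later steps. The counts used here were whole numbers before those steps, so transcripts from broken cells remain.

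The filter used the study's limits of more than 2500 genes and under 10% mitochondrial UMIs but not its upper limit of 6000 genes, which 1805 control and 1652 TBL/RBKO barcodes reached. Counts were summed per library and class, expressed as CPM, and given exact Poisson intervals. Shares were given exact binomial (Clopper-Pearson) intervals and ratios exact conditional binomial ones, at 95%. UMIs of 1 cell and animals within a pool are not independent, so intervals and upper bounds at 0 UMIs cover counting error only. For the ratios of all genes, a count of 0 in 1 library was replaced by 3 counts. Low-hormone barcodes were called X-like from 3 or more detected markers of the best-scoring class. In a range of 80 to 125 hormone UMIs per 10000, near the floor, lay 49 and 59 barcodes.

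The members, the marker and pathway lists and the tests were chosen with earlier results of these data known. Named are the members, pathway genes past 2-fold in the insulin class (up to 12), Insrr, Grb10, Grb14, Pik3r1, Akt1, Akt2, Foxo1 and Foxo3, the 3 genes most like each member, and Tbl1x, Tbl1xr1 and Cre. Some genes that this rule names are not reported here. Mafa was named after its values were seen. Scrublet's own threshold marked 122 of 6486 control and 2 of 5346 TBL/RBKO barcodes, too few in the latter, so doublets were kept and the highest scores (334 and 231 barcodes) removed as an alternative. The ratio code was tested on simulated counts. Software was Python 3.11.15, numpy 2.4.6, scipy 1.17.1, pandas 2.3.3, scanpy 1.11.5 and matplotlib 3.10.9. Reference positions came from GENCODE M39 and promoter sequences from RefSeq.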

Additional observations from a re-analysis of the deposited data

Results flagged for a closer look

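Igfbp5 lay past 2-fold in opposite directions in different classes, with centred log2 ratios of 1.92 in the insulin class, -1.22 in the Gcg class and 3.60 in the Ppy class. The difference was not tested, since each class of a group came from 1 library, and the values of the Gcg and Ppy classes rested on few barcodes as described above. Pappa2, the protease of Igfbp5, did the same with 1.75 in the insulin class (4395 and 10105 UMIs) and -1.14 in the Ppy class (1753 and 1780 UMIs), and this difference was not tested either. In the Gcg class, where its control level was highest (556 CPM, TBL/RBKO 382 CPM), Pappa2 was at -0.64.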

How the results depend on the processing

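Of 232 alternative values of the members' ratios, 150 moved by less than their counting interval, 77 moved by more and 5 turned in direction. A turn was counted only where the main ratio was past 2-fold. Sign changes of smaller ratios are among the 150 and the 77. Insr in the Ppy class (0.00), for example, kept its sign in 3 of 8 alternatives. Irs2 in the insulin class ranged from 0.95 (UMIs other than hormones and mitochondrial genes, not centred) to 1.40, past 2-fold in 7 of 8 alternatives. Igfbp5 there ranged from 0.64 (as a mean of per-cell CPM) to 2.40, also past 2-fold in 7 of 8. Among these 7 was 1.02 under 6000 detected genes (1203 UMIs), close to the 2-fold line. Igf1r in the insulin class ranged from 0.36 to 1.04. At 1.04, with the largest hormone at least 10 times the next, Igf1r was past 2-fold and the number of members past 2-fold in the insulin class became 4 (3 higher, 1 lower). Igfbp7 was below 0 in all 4 classes under all 8, but at -0.02 in the Sst and Ppy classes with the 10-fold rule, against -0.33 and -0.64.

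Igfbp5 in the Gcg class turned to 0.10 under 6000 detected genes and to 0.46 without barcodes with 3 or more markers of immune, endothelial or stromal classes (an alternative chosen after the data were seen). Igfbp5 in the Ppy class turned to -0.13 where the largest hormone was at least 10 times the next. Igf1 in the insulin class turned to 0.042 with a hormone floor of 500 per 10000 and to 0.31 without the marker barcodes. The difference in the share of insulin-class cells with an Insr UMI, 10.8 percentage points at full depth, turned to -0.565 when thinned to 3000 UMIs without insulin.

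The number of members past 2-fold in the Gcg class (1) became 0 under 6000 genes, with the 10-fold hormone rule, without the highest doublet scores and without the marker barcodes, and 2 with at least 1 UMI in each library as the minimum. In the Ppy class (1) it became 0 with the 10-fold rule and 2 with that minimum. Pathway genes in the insulin class (7) became 4 under 6000 genes, and without centring 9, of which 8 were higher and 1 lower against 5 and 2. With UMIs other than hormones and mitochondrial genes, not centred, 1 member was higher and 1 lower there, against 2 and 1. In the Sst class (2) they became 1 under 6000 genes and with the 10-fold rule and 4 with the lower minimum. In the Ppy class (2) they became 0 under 6000 genes, 4 (all higher, against 1 higher and 1 lower) without centring, 1 with the 10-fold rule and 8 with the lower minimum. Where a cause is not named above, the cause was not tested. The upper limit of 6000 genes left 312 of 1338 TBL/RBKO insulin-class cells. The 10-fold rule left 38 of 223 control and 113 of 374 TBL/RBKO Sst-class cells. No paired analysis was possible because each group has 1 library, and no replicate could be left out. Igf2 in every hormone class, and Igf1 in the Gcg, Sst and Ppy classes, had too few UMIs for a ratio. So had Igf1 in the insulin class without the marker barcodes (6 and 5 UMIs).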
